A study of Arabidopsis thaliana with 12 samples.

Results

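Early nodulin-like (ENODL) genes were read on arrays of whole Arabidopsis thaliana seedlings with and without gamma irradiation. The set was defined by locus: 10 ENODL genes were listed, of which 9 had a row among the 16947 loci of the expression table and 8 were expressed highly enough to be tested. ENODL4 (AT4G32490) was not analysed here, and ENODL1 (AT5G53870) stayed below the level needed for a test. The tested genes were ENODL2 (AT4G27520), ENODL8 (AT1G64640), ENODL9 (AT3G20570), ENODL13 (AT5G25090), ENODL14 (AT2G25060), ENODL15 (AT4G31840), ENODL17 (AT5G15350) and ENODL18 (AT1G08500). The list was drawn up because ENODL13, ENODL14 and ENODL15 were low after irradiation in these same data. Their irradiation values are therefore a description and carry no test, while the other members entered by family name.

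The 12 arrays form 4 groups of 3, called biological replicates in the labels: wild type and gmi1-1, each untreated or irradiated. All seedlings were 5 days old and of ecotype Col-0, and gmi1-1 is the insertion line SALK_036931 in GMI1 (AT5G24280), 1 mutant allele. Irradiated seedlings received 100 Gy of gamma rays and were harvested 1.5 h later. The series asks whether GMI1, a gene dependent on the damage kinase ATM, takes part in the transcriptional response. Values are log2 expression as normalized by the authors, so a difference of 1 is a doubling, and the level of 1 gene cannot be set against that of another. The labels do not say whether untreated plates were handled like the irradiated ones.

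ENODL proteins belong to the phytocyanins, small secreted proteins with a fold known from blue copper proteins. ENODLs lack residues that bind copper in other phytocyanins, and most carry a signal for a glycosylphosphatidylinositol (GPI) anchor that holds them at the outer face of the plasma membrane. Many are decorated as arabinogalactan proteins (AGPs), sugar-rich proteins of the plant cell surface. The name comes from their similarity to a legume protein induced in early root nodules, although Arabidopsis forms none. ENODL11 to ENODL15 form a group of close relatives that act redundantly in the ovule in pollen tube reception, where ENODL14 was shown to bind the receptor kinase FERONIA. ENODL9 is known from sieve elements, the conducting cells of the phloem.

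The libraries labelled gmi1-1 replicate 1 did not behave like a pair of untreated and irradiated samples. The repair gene BRCA1 (AT4G21070), a marker of the damage response, read 10.54 (log2) in the one labelled untreated and 10.56 in the one labelled irradiated. In the other untreated arrays of the mutant it was 2.70 and 2.90. Each of the 2 correlated best with the other. For gmi1-1 irradiated replicate 3 the values were compressed (interquartile range 4.70, and 5.28 to 5.83 elsewhere), and its GAPDH control probe sets differed more, with the 5′ minus the middle set at -1.30 compared with -0.47 to -0.17. GMI1 was between 9.97 and 10.92 on the irradiated wild type arrays and between 1.24 and 1.66 on all 6 arrays of the mutant. The 2 libraries labelled gmi1-1 replicate 1 are called doubted below. For tested members and ENODL19, irradiation differences in gmi1-1 are given with and without them. Other results are given without them where stated. Through the shared fit they also enter the SEs and p-values of wild type, given with all arrays unless stated.

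ENODL13, ENODL14 and ENODL15 varied little between untreated wild type arrays and were on average 8.17 to 15.6 times lower in irradiated wild type. Before irradiation ENODL13 read 5.74, 6.01 and 5.91 (log2; replicates 1, 2 and 3, as in all lists of 3 that follow), and after it 2.57, 1.85 and 1.36. All irradiated values lay below all untreated ones, and below the log2 value of 4 that served as the floor for testing. The mean went from 5.89 ± 0.14 (SD, n = 3) to 1.93 ± 0.61, a log2 difference of -3.96 (SE 0.67), or 15.6-fold. Since the lower level is near background, the size of that difference is approximate.

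ENODL14, the relative with a known FERONIA contact, was at 7.87, 8.34 and 8.19 untreated and at 5.95, 5.50 and 3.86 irradiated in wild type. The groups again did not overlap, and replicate 3 of the irradiated arrays was well below the other two. The means were 8.13 ± 0.24 and 5.10 ± 1.10 (SD, n = 3), a log2 difference of -3.03 (SE 0.71), or 8.17-fold. Without irradiated replicate 3 the difference was -2.41.

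ENODL15 showed the widest spread over irradiated wild type arrays among the 8 tested genes. It was at 9.88, 9.52 and 9.76 in untreated wild type and at 7.48, 5.83 and 3.98 in irradiated wild type. The untreated arrays thus lay within less than 1 log2 unit of each other, and the irradiated ones were spread over 3.50. The means were 9.72 ± 0.18 and 5.76 ± 1.75 (SD, n = 3), a log2 difference of -3.96 (SE 1.19), or 15.5-fold. Without irradiated replicate 1 the difference was -4.815, and without irradiated replicate 3 it was -3.065.

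In gmi1-1 the same 3 genes were low on the irradiated arrays of replicates 2 and 3, and near the untreated level in the library labelled gmi1-1 irradiated replicate 1. ENODL13 was at 4.96, 5.80 and 6.09 untreated and at 4.89, 2.14 and 1.68 irradiated. ENODL14 was at 7.17, 7.95 and 8.16 untreated and at 7.37, 5.96 and 4.10 irradiated. ENODL15 was at 8.88, 9.24 and 9.64 untreated and at 9.28, 6.78 and 3.35 irradiated. For ENODL14 and ENODL15 the library labelled irradiated replicate 1 was even above the one labelled untreated replicate 1, so the groups overlapped as labelled.

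With all arrays of the mutant the log2 differences were -2.71 (SE 0.67) for ENODL13, -1.95 (SE 0.71) for ENODL14 and -2.78 (SE 1.19) for ENODL15. Leaving out the 2 doubted libraries, so that each group of the mutant holds 2 arrays, they were -4.04 (SE 0.36), -3.03 (SE 0.68) and -4.38 (SE 1.10). The latter values are within 0.42 of those of wild type for each gene, but wild type keeps its replicate 1 there. With arrays numbered 2 and 3 only, the wild type differences were -4.355 (SE 0.28), -3.585 (SE 0.64) and -4.735 (SE 0.97). Those of gmi1-1 stayed at -4.04, -3.03 and -4.38, each smaller in size than in wild type. Of the 2 irradiated mutant arrays left, replicate 3 has the compressed values described above. It was the lower for each gene (1.68, 4.10 and 3.35, against 2.14, 5.96 and 6.78 in replicate 2). How close the genotypes are thus depends on that array and on whether replicate 1 is kept in wild type. With both doubted libraries left out, ENODL13 ranged from 5.74 to 6.09 over 5 untreated arrays and from 1.36 to 2.57 over 5 irradiated arrays. ENODL14 ranged from 7.87 to 8.34 against 3.86 to 5.96, and ENODL15 from 9.24 to 9.88 against 3.35 to 7.48. With all 12 arrays the untreated and irradiated ranges of ENODL14 and ENODL15 overlapped, through the library labelled gmi1-1 irradiated replicate 1.

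**Figure D1:**
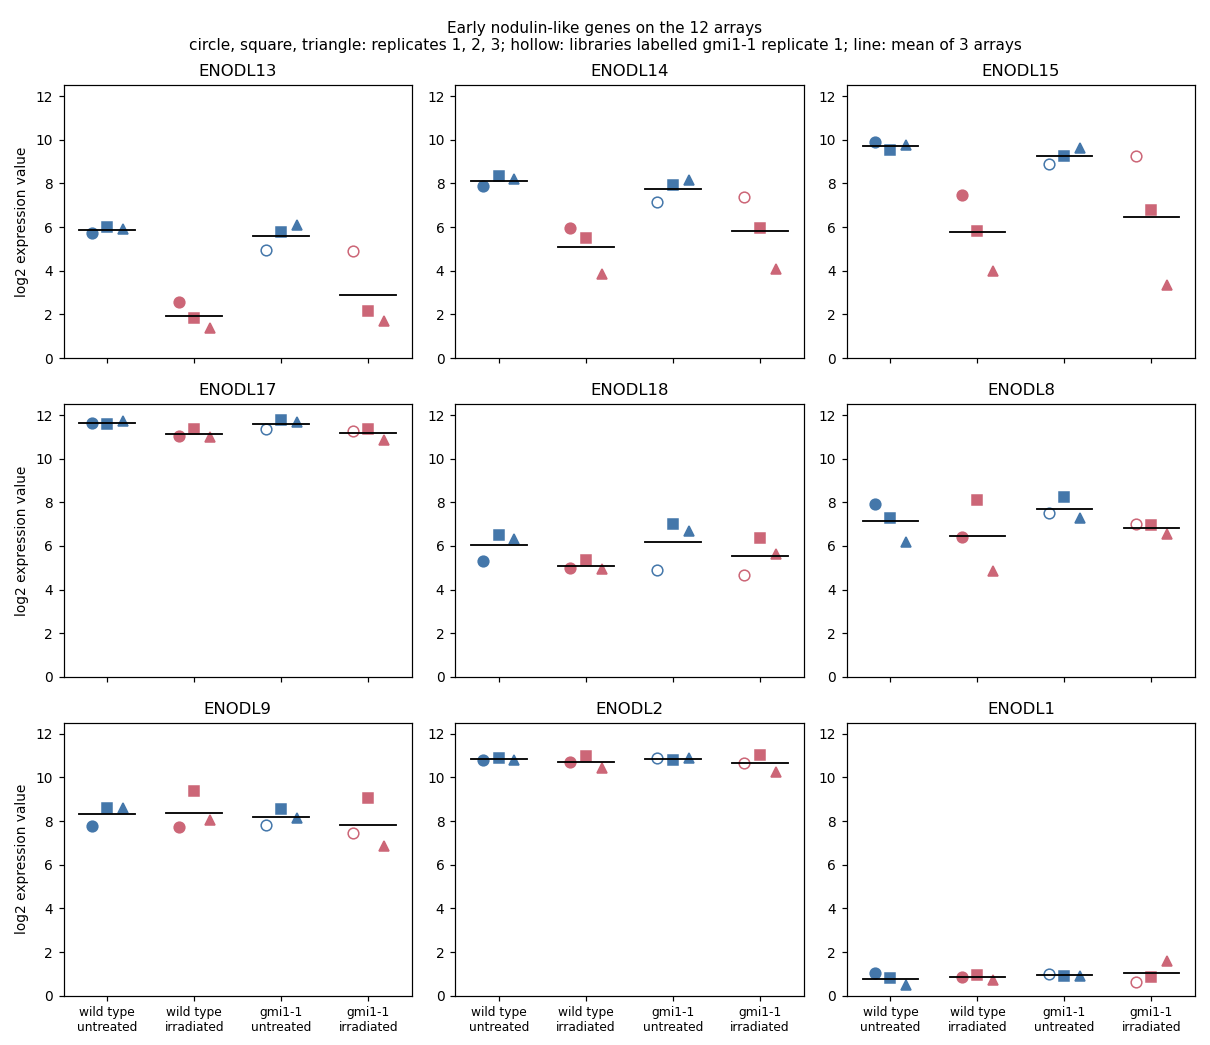
Log2 expression value (vertical axis) of the 9 measured ENODL genes on each of the 12 arrays by group; circles, squares and triangles are replicates 1, 2 and 3, hollow symbols are the libraries labelled gmi1-1 replicate 1, and lines are means of 3 arrays. ENODL13, ENODL14 and ENODL15 are low on 5 of the 6 irradiated arrays, ENODL17 lies between 10.86 and 11.75, and ENODL1 stays at or below 1.60.

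The 2 doubted libraries carried a high damage marker together with ENODL levels close to untreated. Their levels can be placed between the mean of gmi1-1 untreated replicates 2 and 3, set to 0, and that of gmi1-1 irradiated replicates 2 and 3, set to 1. By this measure BRCA1 reached 0.918 in the one labelled untreated and 0.920 in the one labelled irradiated. ENODL13 reached 0.244 and 0.261, ENODL14 0.293 and 0.226, and ENODL15 0.128 and 0.0366. With wild type placed likewise by its own replicates 2 and 3, irradiated replicate 1 had BRCA1 at 0.951, ENODL13 at 0.778, ENODL14 at 0.646 and ENODL15 at 0.456. In both genotypes, then, the 3 ENODL genes were nearer to the untreated mean than BRCA1 was in the replicate 1 library labelled irradiated. These positions are descriptions of single libraries.

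The remaining members differed by less than 1 log2 unit between untreated and irradiated wild type. ENODL17, another phytocyanin-like protein gene, was at 11.63, 11.60 and 11.73 in untreated wild type and at 11.04, 11.38 and 10.98 in irradiated wild type. All irradiated arrays were lower, by 0.52 on average (SE 0.21, limma adjusted p = 0.206). In gmi1-1 ENODL17 was at 11.35, 11.75 and 11.68 untreated and at 11.26, 11.38 and 10.86 irradiated, with overlapping groups and a difference of -0.43 (SE 0.21, limma adjusted p = 0.407). Without the 2 doubted libraries the gmi1-1 difference was -0.595 (SE 0.26). With array weights the wild type difference of ENODL17 passed at -0.56 (adjusted p = 0.0319).

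ENODL18 was low in replicate 1 of most groups. It was at 5.30, 6.50 and 6.30 in untreated wild type and at 5.01, 5.35 and 4.93 in irradiated wild type. The mutant arrays read 4.91, 7.01 and 6.68 untreated and at 4.67, 6.38 and 5.63 irradiated. Replicate 1 was the lowest array in 3 of the 4 groups and within 0.08 of the lowest in irradiated wild type. The irradiation difference was -0.94 in wild type (SE 0.55, limma adjusted p = 0.399) and -0.64 in gmi1-1 (SE 0.55, limma adjusted p = 0.606). Without the 2 doubted libraries the wild type SE was 0.33 (limma adjusted p = 0.136). The gmi1-1 difference was then -0.84 (SE 0.41). On arrays numbered 2 and 3 only, the wild type difference was -1.26 (SE 0.32, limma adjusted p = 0.0501).

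ENODL8 varied widely among the irradiated wild type arrays. It was at 7.93, 7.29 and 6.17 in untreated wild type and at 6.41, 8.11 and 4.87 in irradiated wild type, so replicate 2 was the higher one after irradiation and the others lower. In gmi1-1 it was at 7.51, 8.25 and 7.29 untreated and at 7.01, 6.96 and 6.54 irradiated, with all irradiated arrays below the untreated ones. The differences were -0.67 in wild type (SE 0.67, limma adjusted p = 0.624) and -0.85 in gmi1-1 (SE 0.67, limma adjusted p = 0.571). Without the 2 doubted libraries the gmi1-1 difference was -1.02 (SE 0.87). Without wild type irradiated replicate 2 the wild type difference was -1.49, and without irradiated replicate 3 it was 0.13, so single arrays set both its size and its sign.

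ENODL9, the sieve element gene, was at 7.76, 8.58 and 8.62 in untreated wild type and at 7.71, 9.40 and 8.06 in irradiated wild type. In gmi1-1 it was at 7.81, 8.54 and 8.16 untreated and at 7.47, 9.07 and 6.87 irradiated. Replicate 2 was the highest irradiated array in both genotypes. The differences were 0.07 in wild type (SE 0.55, limma adjusted p = 0.961) and -0.37 in gmi1-1 (SE 0.55, limma adjusted p = 0.763). Without the 2 doubted libraries the gmi1-1 difference was -0.38 (SE 0.69). Of 5 other phloem genes in the table, 3 were tested. None passed in limma for irradiation, against 4.54% of all loci in wild type and 0% in gmi1-1, shares from which 3 genes cannot be told apart. The mean of the 5 lay between 5.61 and 6.15 on all arrays.

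ENODL2, a member with a long AGP-like stretch, was the steadiest of the tested genes over untreated arrays. It was at 10.82, 10.91 and 10.81 in untreated wild type and at 10.71, 10.97 and 10.44 in irradiated wild type. In gmi1-1 it was at 10.89, 10.79 and 10.90 untreated and at 10.64, 11.03 and 10.26 irradiated. Replicate 3 was the lowest irradiated array in both genotypes. The differences were -0.14 in wild type (SE 0.22, limma adjusted p = 0.768) and -0.22 in gmi1-1 (SE 0.22, limma adjusted p = 0.659). Without the 2 doubted libraries the gmi1-1 difference was -0.2 (SE 0.29). ENODL1 lay between 0.50 and 1.60 on all 12 arrays, at background, and no direction is given for it.

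Over the 8 tested members, 2 passed as lower for irradiation in wild type, against 1.33% of the 9889 loci tested (132 loci). In either direction 4.54% of all loci passed (449 loci), and 111, 167 and 176 loci passed without wild type irradiated replicate 2, untreated replicate 3 and untreated replicate 2. The 2 members were ENODL13 and ENODL14, genes for which the list was chosen, so nothing is read from this count. The irradiated arrays all lay below the untreated ones for 4 of 8 members (ENODL13, ENODL14, ENODL15 and ENODL17), against 17.3% of all loci, and none of the 8 lay above, against 10.8%. The median difference of the 8 was -0.80, against -0.11 over all loci. ENODL13, ENODL14 and ENODL15, chosen for their falls, are among these 4 and these 8, so nothing is read from either figure. The count of 2 passing members rested on single arrays. It was 1 without any 1 of the 3 untreated wild type replicates, without wild type irradiated replicate 2 or 3, or without gmi1-1 irradiated replicate 2. It was 3 without gmi1-1 irradiated replicate 1 or 3. It was also 3, with ENODL15 as the third, without the 2 libraries labelled gmi1-1 replicate 1 (3.21% of all loci) and with arrays numbered 2 and 3 only (3.44%).

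In gmi1-1 as labelled, 0 of 8 members passed in limma, where 0% of all loci did. At an unadjusted p under 0.05, 3 of the 8 and 1306 of all loci were counted. The groups did not overlap for 2 of 8 members (ENODL8 and ENODL13), all lower, against 10.6% of all loci, and none of the 8 lay above, against 1.64%. The median of the members was -0.74 against -0.23 over all loci. Without the 2 libraries labelled gmi1-1 replicate 1, 3 of 8 passed as lower, against 5.13% of all loci. These were ENODL13, ENODL14 and ENODL15, and the median of the 8 was then -0.93 against -0.345 over all loci. With arrays numbered 2 and 3 only, these 3 again passed as lower, against 7.48% of all loci. The 3 genes were chosen for their falls after irradiation and enter every count and median given here, so nothing is read from those.

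**Figure D2:**
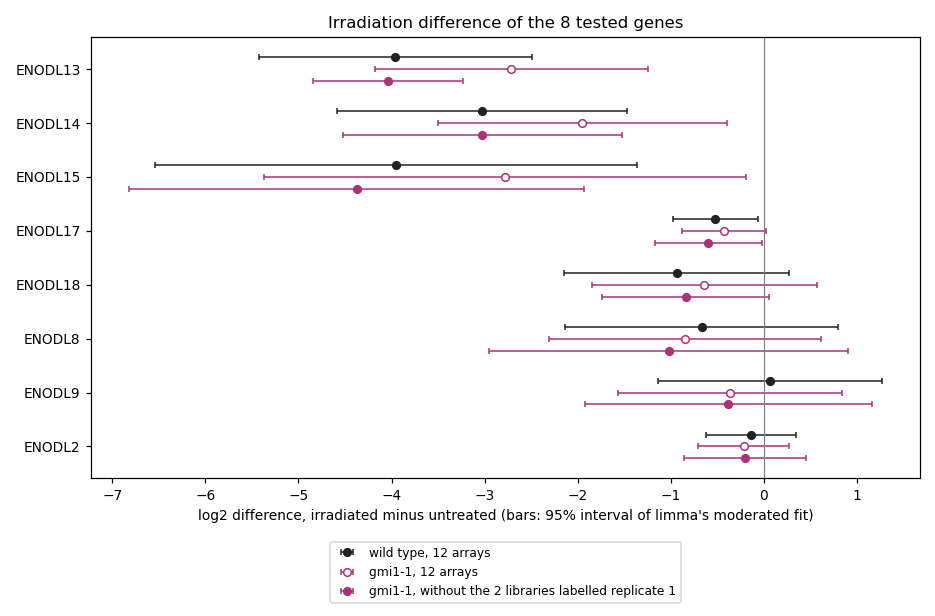
Log2 difference of irradiated minus untreated arrays (horizontal axis) for the 8 tested ENODL genes, with 95% intervals of limma's moderated fit, in wild type, in gmi1-1 with all arrays (open) and in gmi1-1 without the libraries labelled replicate 1 (filled). ENODL13, ENODL14 and ENODL15, which were chosen for this difference, lie at -1.95 or below in all 3 series, and the other genes at -1.02 or above.

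No member passed in limma for a difference between genotypes. Untreated, the gmi1-1 minus wild type difference ran from -0.47 for ENODL15 (95% interval -3.06 to 2.12) to 0.55 for ENODL8 (-0.91 to 2.02). Here 0 of 8 members and 1 of all loci passed (0.0101%), the latter being LCR67 (AT1G75830), a defensin-like gene. At an unadjusted p under 0.05, 0 members and 42 loci were counted. Without the library labelled gmi1-1 untreated replicate 1 and its irradiated counterpart, the differences ran from -0.28 for ENODL15 (95% interval -2.51 to 1.95) to 0.81 for ENODL18 (-0.01 to 1.63), and again none passed. With all arrays ENODL18 had been at 0.17, and with arrays numbered 2 and 3 only it was at 0.445 (-0.28 to 1.17). Its untreated replicate 1 was low in both genotypes, and the value of 0.81 leaves that replicate out of gmi1-1 only. For ENODL2 the interval with all arrays was narrow, -0.47 to 0.50 around a difference of 0.01.

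After irradiation the gmi1-1 minus wild type difference was 0.98 for ENODL13 (95% interval -0.49 to 2.44), 0.71 for ENODL14 (-0.85 to 2.26) and 0.71 for ENODL15 (-1.88 to 3.30). Here limma called 0 of 8 members and only GMI1 among all loci (0.0101%), and counted 0 members and 764 loci at an unadjusted p under 0.05. Without the libraries labelled gmi1-1 replicate 1, the 3 differences were -0.02, -0.07 and -0.70, with replicate 1 kept in wild type. With arrays numbered 2 and 3 only they were 0.305, 0.35 and 0.16. Without the 2 doubted libraries ENODL18 was 0.91 higher in the irradiated mutant (SE 0.37, 95% interval 0.09 to 1.73, limma adjusted p = 0.326). It was the 1 member under an unadjusted p of 0.05 in that fit, where 1362 of all loci were. With arrays numbered 2 and 3 only it was 0.865 higher (95% interval 0.14 to 1.59, limma adjusted p = 0.224).

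The test of whether irradiation acted differently in the mutant also gave 0 of 8 members in limma and only GMI1 among all loci (0.0101%), with 0 members and 184 loci at an unadjusted p under 0.05. With all arrays the differences between the irradiation effects were 1.25 for ENODL13 (95% interval -0.83 to 3.32), 1.08 for ENODL14 (-1.12 to 3.28) and 1.17 for ENODL15 (-2.49 to 4.84). Without the 2 doubted libraries they were -0.08 (-1.12 to 0.97), 0.00 (-1.93 to 1.94) and -0.42 (-3.58 to 2.74). That fit keeps replicate 1 in wild type only, where it was the highest irradiated array for each gene. With arrays numbered 2 and 3 only, the differences were 0.32 (-0.60 to 1.24), 0.56 (-1.51 to 2.63) and 0.36 (-2.78 to 3.50). The sign thus depends on which arrays are kept. The intervals without the 2 doubted libraries leave room for a difference of about 1 log2 unit for ENODL13, 1.9 for ENODL14 and several for ENODL15. With all arrays they reach up to 3.32 for ENODL13 and 3.28 for ENODL14. These comparisons share arrays with the ones that led to the choice of the 3 genes.

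The depth of the difference varied between arrays. For ENODL13 the irradiated minus the untreated array of the same number gave -3.17, -4.16 and -4.55 in wild type, compared with -0.07, -3.66 and -4.41 in the mutant. ENODL14 gave -1.92, -2.84 and -4.33 in wild type, compared with 0.20, -1.99 and -4.06 in the mutant. ENODL15 gave -2.40, -3.69 and -5.78 in wild type, compared with 0.40, -2.46 and -6.29 in the mutant. In wild type the largest difference was that of replicate 3 and the smallest that of replicate 1 for each of these genes. In the mutant replicate 3 was below replicate 2, and the replicate 1 value compares the 2 doubted libraries with each other. Untreated and irradiated arrays of 1 number are not taken as pairs, so these differences are descriptions of single arrays. The labels do not say what a number stands for beyond the replicate.

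The genes whose levels over the 12 arrays were most like those of ENODL13, ENODL14 and ENODL15 included 4 of the listed genes of mitosis and cytokinesis (CSLD5, SYP111, CYCB1;4 and CDKB2;1) among 13 distinct genes, with no test of enrichment. Pearson's r was ranked over 4701 named loci, and since untreated and irradiated arrays lie apart, a high r mostly reflects that split and is given without a test. For ENODL13 the first 5 were CSLD5 (AT1G02730), a cellulose synthase-like gene of the cell plate (r = 0.992), ROPGEF6 (AT3G55660), an activator of ROP GTPases (0.985), iqd8 (AT1G72670), a calmodulin-binding IQD family gene (0.982), EB1C (AT5G67270), a microtubule end-binding protein (0.978), and the mitotic cyclin CYCB1;4 (AT2G26760) (0.976). For ENODL14 they were SYP111 (AT1G08560), a cytokinesis-specific syntaxin (0.997), CYCB1;4 (0.991), the adenine phosphoribosyltransferase gene APT2 (AT1G80050) (0.978), the acyltransferase gene BAT1 (AT4G31910) (0.975) and AGP1 (AT5G64310), a classical AGP (0.972). For ENODL15 they were SYP111 (0.980), the kinase CDKB2;1 (AT1G76540) (0.974), the spindle checkpoint genes MAD2 (AT3G25980) (0.974) and BUB3.1 (AT3G19590) (0.970), and the cyclin CYCA1;1 (AT1G44110) (0.969). Of the 13 genes, 2 (SYP111 and CYCB1;4) stood in more than 1 ranking.

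SYP111 had the highest r with ENODL14 and with ENODL15. It was at 9.07, 9.40 and 9.58 in untreated wild type and at 6.86, 5.96 and 3.91 in irradiated wild type. On the mutant arrays it was at 7.93, 9.01 and 9.13 untreated and at 8.28, 6.77 and 4.39 irradiated. The library labelled gmi1-1 irradiated replicate 1 was thus again near the untreated level and replicate 3 the lowest irradiated array in both genotypes, as for ENODL14. For CSLD5 the same-number differences were -3.84, -4.34 and -5.32 in wild type, compared with 0.17, -4.41 and -4.42 in the mutant.

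**Figure D3:**
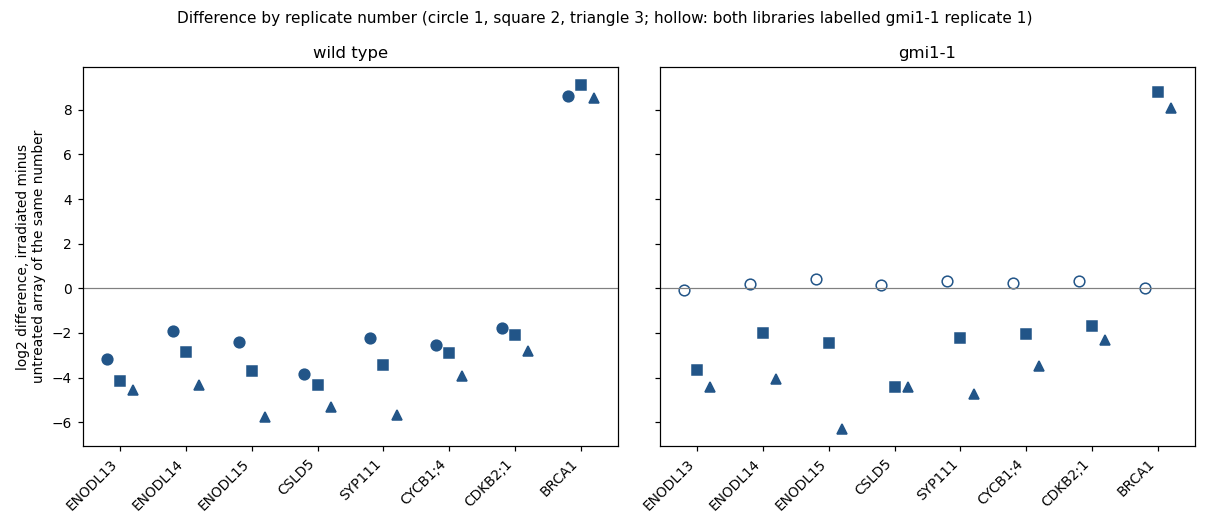
Log2 difference between the irradiated and the untreated array of the same replicate number (vertical axis) in wild type and gmi1-1 for ENODL13, ENODL14, ENODL15, 4 genes ranked as most like them and BRCA1; hollow circles are the libraries labelled gmi1-1 replicate 1. These circles lie between -0.07 and 0.35 except for ENODL15 at 0.40, while the ENODL genes of the other pairs lie between -1.92 and -6.29 and BRCA1 between 8.09 and 9.13.

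Markers of dividing cells moved with these 3 genes. Of 22 listed genes of mitosis and cytokinesis, 16 were in the table and 11 were tested, of which 10 fell and 1 rose in wild type (median -2.31; of all loci 1.33% fell and 3.21% rose). The 1 that rose was CYCB1;1 (AT4G37490), a cyclin known to be induced by DNA damage, by 5.20 (limma adjusted p = 0.0105). CYCB2;4 (AT1G76310) fell by 2.07 (adjusted p = 0.0107) and CYCB1;4 fell by 3.12 (adjusted p = 0.012) in the same limma fit. On untreated wild type arrays 10 or 11 of the 16 reached the floor of 4, and on irradiated ones 2 to 6. CYCB2;4 reached it on untreated wild type arrays only (4.22, 4.28 and 4.33). The filter thus favoured genes high before irradiation, so the counts of falls are not read against the share of all loci. The mean log2 level of the 16 was 5.10 to 5.18 in untreated wild type, 3.19 to 4.07 in irradiated wild type and 4.75 to 4.89 in untreated gmi1-1. In irradiated gmi1-1 it was 3.33 to 4.91, the highest value being that of the library labelled replicate 1. In gmi1-1 none of the 11 passed with all arrays, while 10 fell and 1 rose without the 2 doubted libraries (5.13% and 2.46% of all loci). The share of dividing cells was not measured, its part in the ENODL values was not tested, and in whole seedlings fewer cells of a type and less RNA per cell cannot be told apart. The wild type count of 11 was 7, 4 and 4 without wild type untreated replicate 1, 2 or 3, and 1 and 3 without irradiated replicate 2 or 3.

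No marker of the other tissue lists passed in wild type, where 4.54% of all loci did. In gmi1-1 with all arrays 0% of all loci passed. Lists of so few tested genes cannot be told from these shares, so nothing about tissues is read from the counts. Of 5 root hair genes, all tested, none passed in either genotype, and the mean of the 5 ranged from 4.03 to 5.71 in untreated and from 3.82 to 4.81 in irradiated wild type. RHS18 (AT5G22410), named for its expression in root hairs, was at -2.67 in wild type (limma adjusted p = 0.21). Of 5 stomatal lineage genes 4 were tested and none passed, with a mean of 4.34 to 4.57 in untreated and 3.87 to 4.28 in irradiated wild type. SDD1 (AT1G04110), a protease of stomatal spacing, was at -0.997 (adjusted p = 0.143). Without the 2 doubted libraries, 1 root hair gene and 1 stomatal lineage gene passed as lower in gmi1-1, where 5.13% of all loci did. RHS18 fell by 3.85 (limma adjusted p = 0.0279), and the receptor gene TMM (AT1G80080) fell by 1.72 (limma adjusted p = 0.0103).

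Outside the 10 listed loci, the annotation names 12 further ENODL genes, of which 7 were in the table and 2 were tested. ENODL19 (AT4G12880) was at 10.28, 10.69 and 10.89 in untreated wild type and at 9.44, 9.47 and 10.16 in irradiated wild type. The gmi1-1 arrays gave 10.13, 10.76 and 10.59 untreated and at 9.67, 9.94 and 9.03 irradiated. The irradiated arrays lay below the untreated ones in both genotypes, including the library labelled gmi1-1 irradiated replicate 1. Its differences of -0.93 (SE 0.30, adjusted p = 0.118) and -0.95 (SE 0.30, adjusted p = 0.258) did not pass in limma. Without the 2 doubted libraries the gmi1-1 difference was -1.19 (SE 0.37, limma adjusted p = 0.0793). ENODL10 (AT5G57920), between 4.08 and 5.09 on all arrays, was at -0.25 (adjusted p = 0.654) and -0.05 (adjusted p = 0.939). ENODL6, ENODL7, ENODL12, ENODL16 and ENODL22 had maxima of 1.42, 1.28, 2.62, 3.27 and 2.17, below the floor. ENODL12, from the same group of relatives as ENODL13 to ENODL15, thus gave no level to compare.

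Related cell surface families showed few calls in wild type, where 4.54% of all loci passed. Of 17 other phytocyanins 13 were in the table and 7 tested, and 0 passed in limma, with a median of -0.30. AT1G72230 was at -1.36 (adjusted p = 0.0711) and passed without the 2 doubted libraries (adjusted p = 0.00595). BCB (AT5G20230), a blue copper-binding protein, was at 3.16 with an SE of 2.39 (adjusted p = 0.512), since it stood at 2.54, 9.42 and 8.73 in untreated wild type.

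Of 21 classical AGPs and AG peptides 17 were in the table and 16 tested, of which 1 rose and 1 fell (median -0.38). AGP1 was at 9.66, 9.98 and 9.91 in untreated wild type and at 8.12, 8.67 and 7.43 in irradiated wild type, and fell by 1.78 (SE 0.38, limma adjusted p = 0.0208). AGP5 (AT1G35230) was at 1.95, 1.82 and 1.92 untreated, near background, and at 4.06, 4.95 and 4.96 irradiated, and rose by 2.76 (SE 0.50, adjusted p = 0.0105). It reached the floor of 4 on irradiated arrays only, so the filter favoured its rise. AGP15 (AT5G11740), an AG peptide gene, was at -0.80 (adjusted p = 0.0629). The count of 2 was 1 without wild type untreated replicate 2 or 3 and without wild type irradiated replicate 2 or 3.

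Of 21 fasciclin-like AGPs 17 were in the table and 10 tested, and 0 passed in wild type (median -0.25). FLA1 (AT5G55730) was at -1.03 (adjusted p = 0.178) and FLA16 (AT2G35860) at -0.90 (adjusted p = 0.165) in wild type. Without the 2 doubted libraries FLA16 fell by 1.39 in gmi1-1 (adjusted p = 0.0496). Of 11 FERONIA-type receptors and their partners 10 were in the table and 9 tested, and 0 passed in limma in wild type, with values from -0.70 to 0.32. RALFL34 (AT5G67070), a peptide of the RALF family of FERONIA ligands, was at -0.70 (adjusted p = 0.142), and RALFL22 (AT3G05490) at -0.58 (adjusted p = 0.185). In gmi1-1 with all arrays none of the tested genes of these families passed in limma, where 0% of all loci did.

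**Figure D4:**
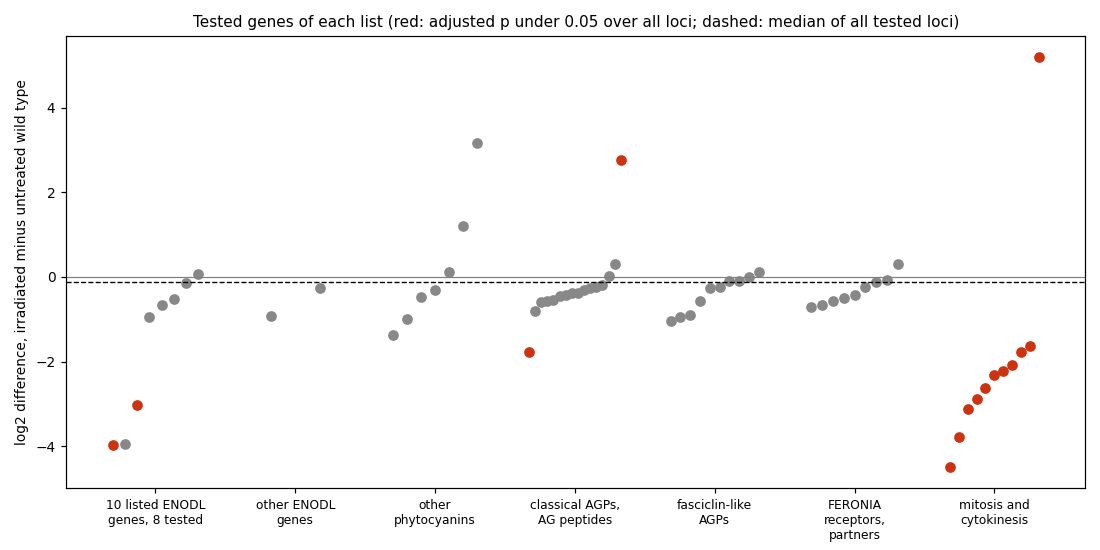
Log2 difference of irradiated minus untreated wild type (vertical axis) for each tested gene of 7 lists, sorted within a list; red points passed at an adjusted p under 0.05 over all loci and the dashed line is the median of all loci (-0.11). The ENODL genes spread from -3.96 to 0.07, the FERONIA receptors and partners from -0.70 to 0.32, and 10 of 11 genes of mitosis and cytokinesis lie below -1.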

How the data were processed

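Per the submitters' processing notes, the authors summarised and normalized the arrays with GCRMA, and the deposited values are log2 expression, 1 per locus and array. GCRMA corrects background by probe sequence, so differences between low values are uncertain. No version, array design or probe sequence was given in the sources used, so binding of a probe set to a related transcript was not tested. Groups and replicate numbers came from the sample titles. Loci were kept where at least 3 of 12 arrays reached a log2 value of 4, which left 9889. Group means were estimated over the 12 arrays in 1 model (limma 3.58.1 under R 4.3.3, functions lmFit and eBayes). P-values are two-sided, adjusted by Benjamini-Hochberg over all tested loci, and a call is an adjusted p under 0.05. The code was tested on simulated data. P-values measure the spread between 3 samples a group, and the number of arrays limits the precision. Names came from RefSeq (TAIR10.1), which held 16851 of 16947 loci and all 10 listed genes. Coordinates are left out, since the array's build is not stated.

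Members, gene lists and named genes were chosen with earlier results of these data known. Named were all members, GMI1, BRCA1, up to 3 genes with the smallest p for wild type irradiation in each of 8 lists, and the 5 named loci most correlated with each of ENODL13, ENODL14 and ENODL15. LCR67 and genes beyond this rule were named after their values were seen. Alternatives were a replicate block, no filter, a filter at 6, quantile normalization, median centring, array weights and each array left out. Added after seeing the data were fits without the libraries labelled gmi1-1 replicate 1, without these and gmi1-1 irradiated replicate 3, and with arrays numbered 2 and 3 only. Same-numbered arrays of the genotypes deviated together, with correlations of deviations from group means of 0.537 to 0.666 untreated and 0.166 to 0.406 irradiated, so the numbers pair wild type with gmi1-1. The SEs, intervals and p-values printed come from fits that ignore this pairing. Only counts and calls are given with the replicate block. Between untreated and irradiated wild type arrays of 1 number, the correlations of deviations were 0.485, 0.0698 and 0.533 (replicates 1, 2 and 3). In gmi1-1 they ran from 0.0514 to 0.139. Replicates 1 and 3 of wild type thus also deviated together. Replicate 2 and the mutant arrays did so little, and the numbers were not taken as pairs there.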

Additional observations from a re-analysis of the deposited data

How the results depend on the processing

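Counts of members called for irradiation in wild type (2 with all arrays) kept that value with the replicate block, no filter, quantile normalization and median centring. The count was 1 with the filter at 6, under which ENODL13 was not tested, and 4 with array weights, and with each array left out it ran from 1 to 3. In gmi1-1 the count was 0 with all arrays and 1 with array weights. It ran from 0 to 2 with each array left out, reaching 1 without gmi1-1 untreated replicate 1 and 2 without gmi1-1 irradiated replicate 1. With the alternatives added after seeing the data it was 3 in wild type throughout. In gmi1-1 it was 3 without both libraries labelled gmi1-1 replicate 1, 1 without these and gmi1-1 irradiated replicate 3 (a single irradiated gmi1-1 array, assumed to vary like the other groups), and 3 with arrays numbered 2 and 3 only. The cause was not tested. Counts for the difference between genotypes, untreated, irradiated and in the irradiation effect, were 0 under every alternative run. The block on the replicate number gave 2 members in wild type and 0 in gmi1-1, with 585 loci called in wild type against 449 without it. In wild type, replicate 2 correlated better with another number than with its own. The block changed no call of a member in the genotype comparisons, where the numbers pair the samples.

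For irradiation, ENODL13, ENODL14 and ENODL15 were compared by size alone, and their calls changed with the counts above. On that basis 811 recomputed differences of single members kept their size within the replicate spread and 23 moved by more. Among the members and comparisons with a test, 1 newly passed (ENODL17 in wild type with array weights). No called difference changed sign. Of the 23, those of ENODL13 in gmi1-1 ran from -4.04 to -3.71 against -2.71. All loci called in wild type (449) numbered 297 with the filter at 6, 1407 with array weights, and from 111 (without wild type irradiated replicate 2) to 591 with each array left out. Of the lists with 0 calls in wild type, the other phytocyanins had 2 with the replicate block, and with array weights they had 2, the fasciclin-like AGPs 3, and the FERONIA list 2. Median centring shifted the median of all loci by 0.18 for irradiation in gmi1-1 and by 0.25 for gmi1-1 minus wild type after irradiation, and quantile normalization by 0.22 and 0.24. With median centring the latter difference of ENODL2 was 0.18 and that of ENODL17 0.28, neither called. ENODL1 and ENODL13 after irradiation were near background, where GCRMA values resolve little.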
